A study of Mus musculus with 4 samples.

Results

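Mitochondrial ribosomal proteins are the nuclear-encoded proteins that build the ribosome of mitochondria. The genes were taken from the deposited count table as the protein-coding genes whose symbol begins with Mrpl or Mrps followed by a digit, which gave 78 of 54532 genes, 49 of them Mrpl and 29 Mrps. Of these, 77 had a mean of at least 10 counts, and Mrpl53 had 0 counts in every library, which allows up to 3 counts per library. Mrpl53 overlaps the gene Gm42688 on the same strand. The data are RNA-seq of 4 mouse livers that carry a liver-specific knockout of Cpt1a and were taken after 24 h without food. Cpt1a encodes the outer-membrane enzyme that makes acylcarnitines for fatty acid entry into mitochondria. The labels do not name the strain, age or sex. The authors' names for the Cpt1a and Cpt2 groups in their comparisons carry AlbCre, a Cre recombinase under the albumin promoter, which acts in hepatocytes, so other liver cells would keep the gene. All 4 libraries share genotype and treatment, so comparisons between groups come from 3 tables of the authors. These compare the Cpt1a knockout with a reference group, a Cpt2 group with the same reference, and both of these groups with each other. The reference carries a short name made of Rab30 and Cpt2, while the design text speaks of littermate controls and of fasted mice lacking Cpt2. The libraries of both those groups were not analysed here.

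The mitochondrial ribosome has a small subunit, which holds the 12S rRNA and decodes mRNA, and a large subunit, which holds the 16S rRNA and joins amino acids. Its only products are the few oxidative phosphorylation subunits encoded in mitochondrial DNA, so its 2 rRNAs come from one genome and all of its proteins from the other. Some proteins have bacterial homologs and others occur only in mitochondria. Names do not always tell the place: Mrps18a and Mrps30 sit in the large subunit, and Mrps36 is a subunit of the 2-oxoglutarate dehydrogenase complex. By structure, 51 genes belonged to the large subunit and 26 to the small one. Nuclear respiratory factor 1 (NRF1), GABP (a factor of the ETS family) and YY1 are known to bind promoters of nuclear genes for mitochondrial proteins.

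Promoters are shown here because words bound by these factors were counted in them, and because the 4 genes shown were called in at least 1 comparison and differ in their words. They are windows of 300 bases, 250 before and 50 after the start of the RefSeq gene in GRCm38.p6, written 5′ to 3′ on the strand of the gene. Capitals mark each match, in either orientation, to CCGGAAG (ETS or GABP), GCGCATGC (NRF1) or AAGATGGC (YY1). Mrpl17 lies at chr7:105811038-105811337 on the minus strand, Mrps18b at chr17:35916391-35916690 on the minus strand, Mrps24 at chr11:5707652-5707951 on the minus strand and Mrps31 at chr8:22411090-22411389 on the plus strand.
Mrpl17: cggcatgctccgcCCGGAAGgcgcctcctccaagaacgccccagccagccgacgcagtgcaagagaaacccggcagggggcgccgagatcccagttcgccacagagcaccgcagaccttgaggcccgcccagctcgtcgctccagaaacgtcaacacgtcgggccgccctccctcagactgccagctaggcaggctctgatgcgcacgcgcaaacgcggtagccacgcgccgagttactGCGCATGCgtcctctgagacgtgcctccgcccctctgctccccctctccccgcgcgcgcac
Mrps18b: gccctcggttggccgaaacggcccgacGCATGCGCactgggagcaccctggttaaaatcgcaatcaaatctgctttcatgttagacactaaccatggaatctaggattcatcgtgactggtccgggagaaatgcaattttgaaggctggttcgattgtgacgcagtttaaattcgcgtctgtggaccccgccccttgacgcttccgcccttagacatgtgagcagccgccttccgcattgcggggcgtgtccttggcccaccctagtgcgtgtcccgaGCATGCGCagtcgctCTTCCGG
Mrps24: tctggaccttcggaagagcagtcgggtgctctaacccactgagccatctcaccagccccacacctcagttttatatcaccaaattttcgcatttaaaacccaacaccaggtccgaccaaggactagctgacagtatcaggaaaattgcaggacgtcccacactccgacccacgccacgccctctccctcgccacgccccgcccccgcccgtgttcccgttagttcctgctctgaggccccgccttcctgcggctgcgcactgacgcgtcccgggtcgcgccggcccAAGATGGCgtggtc
Mrps31: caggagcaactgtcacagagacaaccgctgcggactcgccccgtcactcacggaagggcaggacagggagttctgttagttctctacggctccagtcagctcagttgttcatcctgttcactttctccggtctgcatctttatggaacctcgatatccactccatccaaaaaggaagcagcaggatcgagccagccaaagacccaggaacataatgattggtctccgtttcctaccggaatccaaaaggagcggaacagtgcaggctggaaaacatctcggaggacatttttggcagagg
The Mrpl17 window holds 1 ETS word and 1 NRF1 word, the Mrps18b window holds 1 ETS word and 2 NRF1 words, the Mrps24 window holds 1 YY1 word close to its 3′ end, and the Mrps31 window holds none of the 3 words. The RefSeq start of Mrps24 lies 7979 bases from the start of the authors' gene model, so this window covers the RefSeq start only. Of the 78 genes, 69 matched a RefSeq promoter, with 75 windows. The ETS word was in 34.7% of their windows against 8.86% of all 32851 windows, the YY1 word in 16.0% against 2.75%, the NRF1 word in 10.7% against 2.71%, and any of the 3 in 50.7% against 13.3%. The words were searched on both strands, and since an ETS word can share its end with the start of a YY1 word, a stretch may count for more than 1 word. The set of all windows was not matched to these genes for base content or for expression in liver, and the part of either in the shares was not tested. These matches describe letters, and no binding was measured.

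A related feature was the closeness of neighbouring genes. In 33 of the 77 genes with counts (42.9%) another gene began within 1000 bases on the opposite strand, compared with 16.0% of 12159 protein-coding genes with a mean of at least 10 counts. Mrpl46 and Mrps11 form such a pair with each other. Mrpl43 is paired with Twnk, the mitochondrial DNA helicase, Mrps12 with the mitochondrial seryl-tRNA synthetase Sars2, and Mrpl36 and Mrpl47 with the complex I subunits Ndufs6 and Ndufb5. The model of 24 of the 77 genes (31.2%) overlapped another counted gene, compared with 22.6% of protein-coding genes. In 4 of them, Mrps24 with Urgcp, Mrps6 with Slc5a3, Mrpl15 with Gm37144 and Mrpl3 with Gm38077, the overlap was on the same strand. Whether the counting used strand is not stated, so reads of overlapping genes may be shared, and values of these genes are uncertain to that extent.

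The libraries held 13138884 to 14116441 counts in 19732 to 20258 genes. Hepatocyte markers such as Alb and Cps1 averaged 537.8 to 15480 FPKM, Kupffer cell markers 4.94 to 46.4, muscle markers were listed at 0 and adipocyte markers reached at most 0.0241. Cpt1a was at 24.4, 28.6, 31.1 and 36.9 FPKM in livers 1 to 4, and the authors' deposited table for knockout against reference gave it a log2 fold change of -2.79 (adjusted p = 5.27e-51). Cpt2 in the Cpt2 group was not called against the reference in the authors' deposited table (log2 fold change -0.075, adjusted p = 0.837). The name of the reference also carries Cpt2, so this comparison cannot show whether the Cpt2 transcript is lost in the Cpt2 group. At an unadjusted p of at most 0.05, the authors' deposited tables had Cpt2 higher in the Cpt1a knockout than in the reference and than in the Cpt2 group. In whole liver, fewer cells of a type and less RNA per cell cannot be told apart. No label states whether each library is its own mouse, and the differences among libraries could therefore be technical in part.

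Levels are given as FPKM, the authors' counts per kilobase of their gene model, scaled to library size. The 78 genes had a median of 10.3 FPKM, compared with 3.51 for protein-coding genes with a mean of at least 10 counts. The large subunit genes had a median of 10.7 FPKM and the small subunit genes 8.28. Within them, the highest levels belonged to Mrpl34, Mrps24, Mrpl14, Mrpl12 and Mrpl43.
Mrpl34, which has a bacterial homolog in the large subunit, was at 25.1, 49.1, 69.4 and 56.2 FPKM in livers 1 to 4 (49.9 ± 18.5, SD, n = 4). Mrps24, a small subunit protein related to bacterial S3, was at 30.1, 41.1, 53.3 and 51.5 FPKM (44.0 ± 10.7). Mrpl14, which sits at the face of the large subunit toward the small one, was at 22.8, 32.2, 56.1 and 48.1 FPKM (39.8 ± 15.1). In each of these 3 genes liver 1 was the lowest and liver 3 the highest. Mrpl12, the stalk protein related to bacterial L7/L12 that recruits elongation factors, was at 19.6, 27.3, 58.5 and 52.4 FPKM (39.5 ± 18.9). Livers 3 and 4 lay above livers 1 and 2 in Mrpl12. Mrpl43, a protein found only in mitochondrial ribosomes, was at 33.2, 40.2, 43.8 and 36.6 FPKM (38.5 ± 4.58), so its values overlapped those of the 4 genes above it. The order of these 5 is therefore not resolved beyond their spread.

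At the low end, Mrps25 was at 0.719, 0.799, 1.04 and 0.813 FPKM, Mrpl19 at 1.98, 1.45, 1.99 and 1.91, Mrps30 at 2.11 ± 0.153 (SD, n = 4) with liver 1 the highest at 2.33, and Mrpl48 at 1.60, 2.29, 3.02 and 3.20. Mrps25 stood apart, since its highest liver was under the lowest value of the other 3 genes. Over the 77 genes, mean levels ran from 0.841 to 49.9 FPKM. A longer gene model went with a lower FPKM, with Spearman's rho of -0.77 across the 77 genes and -0.32 across 12159 protein-coding genes, where length enters both sides. With the principal transcript of GENCODE M21, a choice made after seeing the data, the median CPM per kilobase became 20.2 over 77 genes, compared with 11.7 on the authors' models, and ranks correlated at 0.75. Mrpl33, whose gene model is 15.3 times as long as its principal transcript, moved from place 73 to place 12, and Mrpl52 from place 7 to the top at 102 CPM per kilobase. Places in the order should therefore be read with the gene model in mind.

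**Figure D1:**
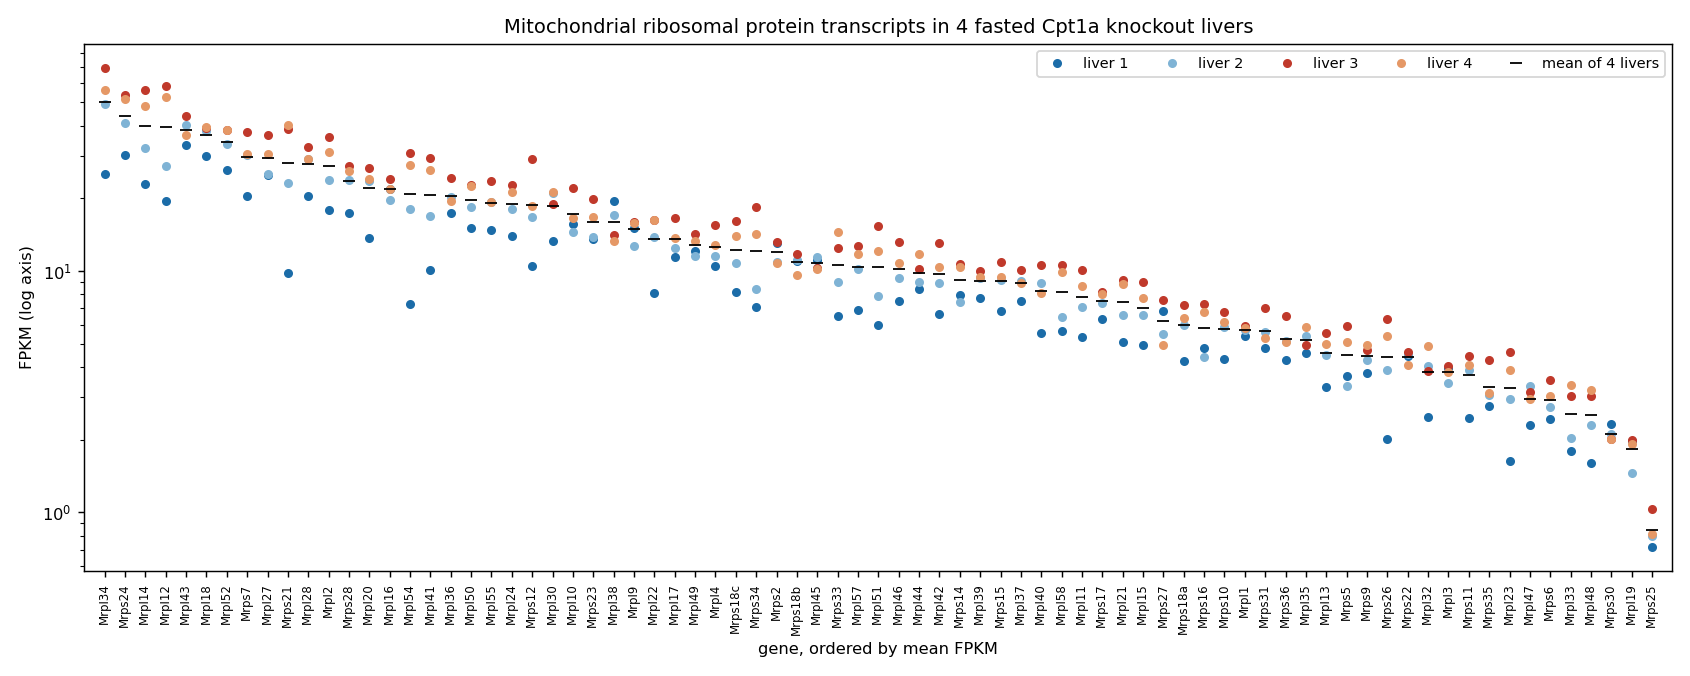
FPKM of 77 mitochondrial ribosomal protein genes (x axis, ordered by mean FPKM) on a log axis, with 1 point per liver and a dash at the mean of 4 livers. Liver 1 is the lowest point in 61 genes and liver 3 the highest in 62.

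The 4 livers differed in the level of the whole set. The genes together took 0.179% of counts in liver 1, 0.235% in liver 2, 0.298% in liver 3 and 0.274% in liver 4, and their summed FPKM was 780.0, 996.8, 1320 and 1178. Liver 1 was the lowest of the 4 for 61 of 77 genes and liver 3 the highest for 62 of 77. The median deviation from the 4-liver mean, on the log2(CPM + 1) scale with TMM scaling, was -0.37 in liver 1, -0.070 in liver 2, 0.30 in liver 3 and 0.14 in liver 4. Over protein-coding genes the same medians were 0.013, -0.0087, 0.0090 and -0.0073.

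The spread of a gene between livers is given as the SD of its log2(CPM + 1). Its median over the 77 genes was 0.286, compared with 0.233 for protein-coding genes. With a gene model of up to 1000 bases the medians were 0.603 and 0.432, and from 1000 to 2000 bases 0.275 and 0.278. From 2000 to 4000 bases they were 0.304 and 0.227, and over 4000 bases 0.258 and 0.225. Mrps21, a small subunit protein with a bacterial homolog, spread most (SD 0.903), at 9.83, 23.0, 38.8 and 40.2 FPKM. Liver 1 was far under livers 3 and 4 in this gene. Mrpl54 followed with an SD of 0.890, at 7.27, 18.1, 30.8 and 27.5 FPKM, and Mrpl12 with 0.758. Mrps26 was at 2.02, 3.89, 6.35 and 5.40 FPKM (SD 0.703) and Mrpl41, a large subunit protein found only in mitochondria, at 10.1, 16.9, 29.5 and 26.1 (SD 0.676). In all 5 the order from lowest to highest began with livers 1 and 2. The steadiest genes were Mrpl1, of the mobile stalk on the large subunit, at 5.40, 5.68, 5.91 and 5.78 FPKM (SD 0.067), and Mrps22 and Mrpl45, the latter the protein that holds the exit tunnel to the inner membrane, with an SD of 0.069 each.

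Short genes among all protein-coding genes moved the same way, so the values are given by length of the gene model. With a model of up to 1000 bases, 8 mitochondrial ribosomal genes had a median deviation of -0.80 in liver 1 and 0.57 in liver 3, and 261 protein-coding genes had -0.43 and 0.29. Over 4000 bases, 22 mitochondrial ribosomal genes had -0.26 in liver 1 and 0.27 in liver 3, and 6793 protein-coding genes had 0.089 and -0.074. The 2 length classes between gave -0.37 and -0.31 in liver 1, and 0.29 in both in liver 3. Protein-coding genes of those 2 classes had -0.18 and -0.047 in liver 1, and 0.18 and 0.089 in liver 3. The direction was thus the same in every length class of the mitochondrial ribosomal genes. Protein-coding genes of up to 4000 bases shared it with smaller medians, and those over 4000 bases had the opposite. Whether RNA quality, library composition or the state of the livers has a part in this was not tested.

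**Figure D2:**
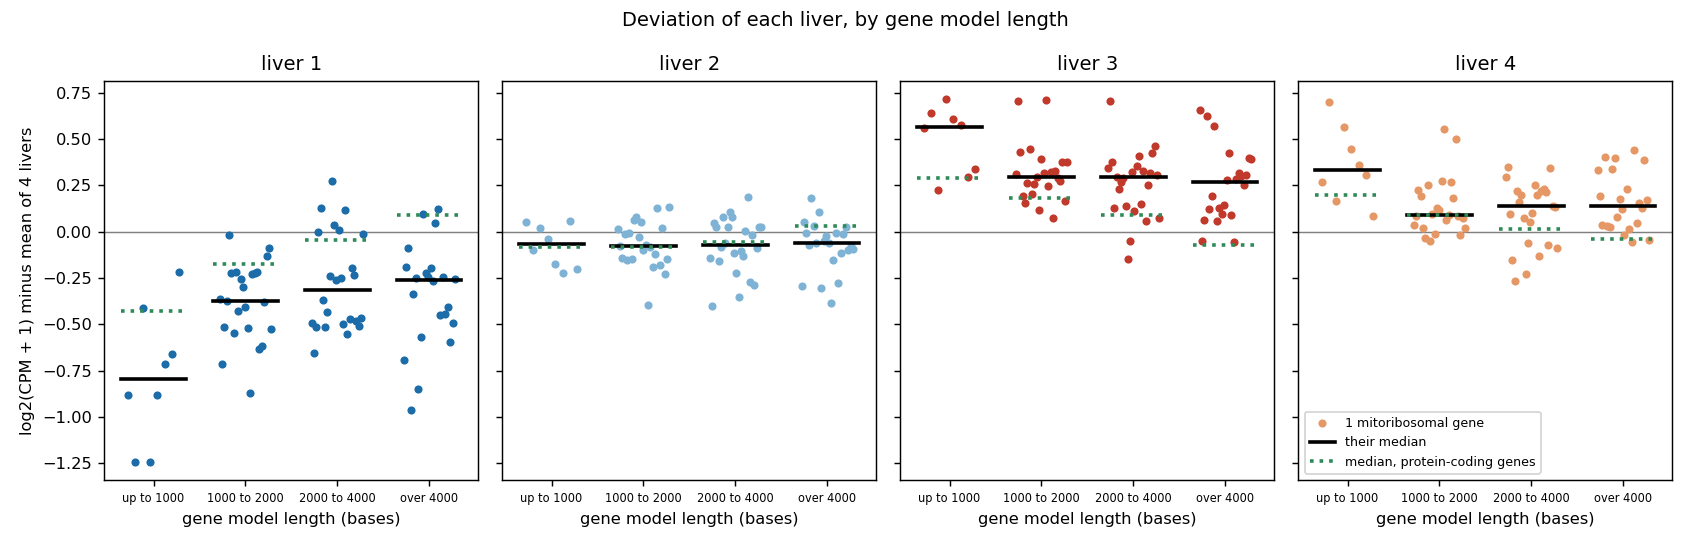
Deviation of each liver from the 4-liver mean in log2(CPM + 1) (y axis), for mitochondrial ribosomal genes in 4 classes of gene model length (x axis, bases), with 1 panel per liver. Points are genes, black lines their medians and dotted green lines the medians of protein-coding genes. Black lines lie under 0 in all classes of liver 1 and over 0 in all classes of liver 3.

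The mitochondrial rRNAs, the other component of the particle, took 0.189%, 0.171%, 0.0965% and 0.151% of counts in livers 1 to 4. Mt-Rnr2, the 16S rRNA, was at 749.3, 610.6, 301.0 and 558.0 FPKM and mt-Rnr1, the 12S rRNA, at 619.9, 550.8, 400.6 and 449.7. Both were highest in liver 1 and lowest in liver 3, the reverse of the protein genes. All genes of the mitochondrial genome together took 8.79% to 10.9% of counts, with liver 1 the lowest and liver 2 the highest. The sources used here do not state how the libraries captured rRNA.

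The first comparison sets these genes in the fasted Cpt1a knockout against the reference group. The name of the reference carries Rab30 and Cpt2, so the part of each group's genotype in a difference cannot be told apart. A gene was called at the authors' adjusted p below 0.05. The authors' deposited table called 5 of 77 genes higher (6.49%, against 6.81% of all genes tested) and 1 lower (1.30%, against 7.60%). Since that table is cut at an unadjusted p of 0.05, the total of 16862 genes tested was worked out from its adjusted p-values. Genes of the set that it does not list were counted as not called. The share called higher was near that of all genes, and the share called lower was smaller than that of all genes. All genes include many with few counts. Over genes with a mean of at least 10 counts, as the 77 have, the shares were 8.1% higher and 8.55% lower here. With that filter they were 11.9% and 12.3% in the Cpt2 group, and 17.5% and 17.9% in the direct comparison. The median log2 fold change of the 77 genes was 0.14, compared with -0.027 for protein-coding genes. It rests on values added up from the other 2 comparisons, since the authors' deposited table for this one stops at an unadjusted p of 0.05 and holds 16 mitochondrial ribosomal genes. On that scale 68 of 77 genes (88.3%) lay within 1.5-fold of no change, compared with 76.4% of protein-coding genes.

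Mrps31 fell most. This small subunit protein occurs only in mitochondria and had a log2 fold change of -1.14 in the authors' deposited table (2.21-fold lower, adjusted p = 1.63e-05). In the 4 knockout livers it was at 4.80, 5.58, 7.01 and 5.28 FPKM (5.66 ± 0.951), with liver 3 the highest as in most of the set. Mrpl17, which lines the polypeptide exit in bacterial ribosomes, rose by 0.69 in the authors' deposited table (adjusted p = 0.00129), and its livers were at 11.4, 12.4, 16.6 and 13.7 FPKM. Mrpl14 rose by 0.86 (adjusted p = 0.0274) and Mrps24 by 0.72 (adjusted p = 0.0102) in the authors' deposited table, both among the most abundant genes of the set. Mrps28 and Mrps10, small subunit proteins, rose by 0.67 and 0.61 there (adjusted p = 0.0320 and 0.0137). Mrps28 was at 17.4, 23.8, 27.3 and 26.0 FPKM and Mrps10 at 4.33, 5.83, 6.77 and 6.17. In 5 of these 6 genes the knockout livers themselves differed by under 2-fold, and in Mrpl14 liver 3 was 2.46 times liver 1.

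In the Cpt2 group, the authors' deposited table called 4 of 77 genes higher (5.19%, against 10.3% of all genes) and 3 lower (3.90%, against 10.7%). Both shares were under those of all genes. The median log2 fold change of the 77 genes was 0.0063, compared with -0.0051 for protein-coding genes. Within 1.5-fold of no change lay 70 of 77 (90.9%), compared with 72.1% of protein-coding genes. Mrpl17 rose most, by 0.94 in the authors' deposited table (1.92-fold, adjusted p = 5.06e-09). The paralogs Mrps18b, of the small subunit, and Mrps18a, of the large subunit, rose by 0.67 and 0.62 there (adjusted p = 0.000332 and 0.00733), and Mrpl16, which lies near the peptidyl transferase centre, by 0.54 (adjusted p = 0.0121). The third paralog, Mrps18c, which holds the place of bacterial S18, was at -0.022 in the authors' deposited table (adjusted p = 0.976). Mrpl34, Mrpl39 and Mrps24 were lower, at -0.60, -0.59 and -0.50 (adjusted p = 0.0211, 0.00205 and 0.0319) in the authors' deposited table. Mrpl39 is a large subunit protein found only in mitochondria.

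The direct comparison of the Cpt1a knockout with the Cpt2 group shares its libraries with the other comparisons, so its values are given beside them and not as separate evidence. By the authors' deposited table, the knockout had 11 of 77 genes called higher (14.3%, against 14.2% of all genes) and 4 lower (5.19%, against 14.6%). The median log2 fold change was 0.14, compared with -0.010 for protein-coding genes, and 68 of 77 genes (88.3%) lay within 1.5-fold, compared with 67.5%. Mrps24 had the largest difference of the set, at 1.20 (2.30-fold, adjusted p = 9.35e-08) in the authors' deposited table. It was called higher than the reference in the knockout (0.72) and lower than the reference in the Cpt2 group (-0.50). Mrps24 was at 30.1 to 53.3 FPKM in the 4 knockout livers, and its model overlaps Urgcp on the same strand.

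The other genes called higher in the knockout came from both subunits. Mrpl18, of the central protuberance, stood at 0.91 in the authors' deposited table (adjusted p = 2.95e-06), with livers at 29.9, 38.0, 39.3 and 39.5 FPKM. Mrpl20, Mrpl14 and Mrpl28 stood at 0.79, 0.71 and 0.69 in the authors' deposited table (adjusted p = 0.00699, 0.0392 and 0.00197). Mrpl57, Mrpl30, Mrps10, Mrps14, Mrpl45 and Mrpl1 stood between 0.40 and 0.60 there (adjusted p from 0.00426 to 0.0298). In all, 8 of 50 tested large subunit genes were called higher and 1 lower, and 3 of 26 small subunit genes were called higher and 3 lower, beside 14.2% higher and 14.6% lower over all genes. The difference between the subunits was not tested. By origin, 9 of 44 genes with a bacterial homolog were called higher and 2 lower, and 2 of 28 genes found only in mitochondria were called higher and 1 lower, beside the same shares.

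Called lower in the knockout than in the Cpt2 group were Mrps18b at -0.65 (adjusted p = 5.39e-05), Mrps31 at -0.64 (adjusted p = 0.00170), Mrps2, related to bacterial S2, at -0.55 (adjusted p = 0.000342) and Mrpl16 at -0.41 (adjusted p = 0.0258), in the authors' deposited table. The other comparisons place them differently. Mrps31 was lower than the reference in the knockout (-1.14) and at -0.52 in the Cpt2 group, where its adjusted p was 0.0606. Mrps18b and Mrpl16 were called higher than the reference in the Cpt2 group, while the knockout was at 0.027 and 0.13 on the summed scale and not called. In the 4 knockout livers Mrps18b was at 11.0, 11.1, 11.8 and 9.62 FPKM, Mrps2 at 13.1, 10.9, 13.2 and 10.7 and Mrpl16 at 21.8, 19.6, 24.2 and 21.8, and the SDs of their log2(CPM + 1), 0.114, 0.153 and 0.126, lay under the median of 0.286. Mrps36, the 2-oxoglutarate dehydrogenase subunit that the name rule includes, was not called in any table (-0.39 in the Cpt2 group and 0.38 in the direct comparison, adjusted p = 0.511 and 0.385). Mrpl12 was at -0.17 and 0.47 in these authors' deposited tables (adjusted p = 0.498 and 0.219).

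**Figure D3:**
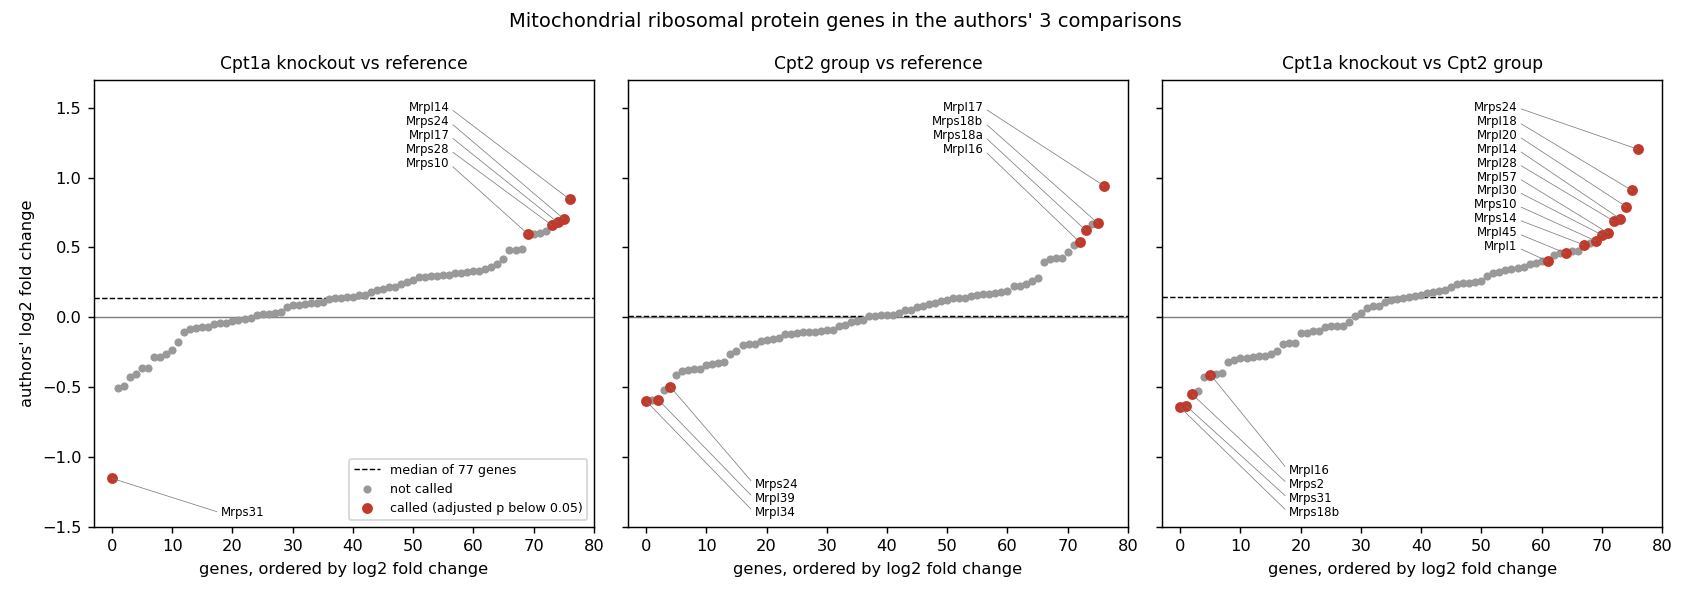
Log2 fold change (y axis) of 77 mitochondrial ribosomal protein genes in the authors' 3 comparisons, with genes ordered by value (x axis). Red points are called at adjusted p below 0.05 and named, grey points are not, and the dashed line is the median of 77 genes; the left panel uses summed values. Medians are 0.14, 0.0063 and 0.14.

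Values by length of the gene model differed between these tables. Protein-coding genes of up to 1000 bases had a median log2 fold change of 0.33 in the first comparison and 0.44 in the direct one, and mitochondrial ribosomal genes of that length had 0.42 and 0.38. In the Cpt2 group the medians had opposite signs, -0.11 for protein-coding genes and 0.21 for mitochondrial ribosomal genes of that length. Mrpl14, Mrps28 and Mrpl34 belong to that class of 8. Measured relative to protein-coding genes of the same length class, a choice made after seeing the data, the medians of the 77 genes were 0.15, 0.012 and 0.085 in the order of the comparisons. Whether length as such has a part in the calls was not tested. Sequencing runs are not given for these groups, so a batch and a genotype cannot be told apart.

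Genes of the same machinery outside the name rule were listed by function. Counts called in these short lists stand beside shares over all genes of 6.81% higher and 7.60% lower in the first comparison, 10.3% and 10.7% in the Cpt2 group, and 14.2% and 14.6% in the direct comparison. Of the 5 further proteins of the particle, Chchd1 and Aurkaip1 were called higher in the knockout against the reference, at 0.98 and 0.45 in the authors' deposited table (adjusted p = 0.00298 and 0.0369), and against the Cpt2 group, at 1.12 and 0.57 (adjusted p = 0.000250 and 0.00659). Both are small subunit proteins. Chchd1 was at 16.6, 23.4, 34.5 and 38.1 FPKM in livers 1 to 4, so livers 3 and 4 stood above livers 1 and 2. Ptcd3 was lower in the Cpt2 group, at -0.53 (adjusted p = 0.0330) in the authors' deposited table.

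Of 26 assembly factors, 1 was called higher and 3 lower in the knockout against the reference, 3 higher and 1 lower in the Cpt2 group, and 2 higher and 3 lower in the direct comparison. Ddx28, an RNA helicase of large subunit assembly, had a log2 fold change of -0.56 in the knockout and 0.87 in the Cpt2 group by the authors' deposited tables (adjusted p = 0.0352 and 1.68e-05), and of -1.44 between them (adjusted p = 7.55e-21). The rRNA methyltransferase Mrm3 was at -0.96 and the helicase Dhx30 at -0.63 in the knockout against the reference (authors' deposited table, adjusted p = 0.00643 and 0.0234). Trub2, a pseudouridine synthase family protein, was higher in both, at 0.66 and 0.92 in the authors' deposited tables (adjusted p = 0.0166 and 1.77e-05).

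Of 17 translation factors, 4 were lower in the knockout against the reference (all genes, 7.60%) and none higher (6.81%), none was called in the Cpt2 group, and 3 were lower in the direct comparison (all genes, 14.6%). At an unadjusted p of at most 0.05 the authors' deposited tables held 5 lower and 0 higher, 2 lower and 0 higher, and 5 lower and 0 higher, in that order. Gfm1, the elongation factor that moves the ribosome along mRNA, was at -0.97 in the authors' deposited table (1.96-fold lower, adjusted p = 1.09e-06), with knockout livers at 15.2 ± 2.74 FPKM (SD, n = 4) and liver 1 the highest at 18.1. Lrpprc, which stabilises mitochondrial mRNA, was at -0.71, Oxa1l, the inner membrane insertase for new proteins, at -0.61, and Gfm2, a factor of ribosome recycling, at -0.52 (authors' deposited table, adjusted p = 0.00594, 0.00333 and 0.0105). Lrpprc and Oxa1l were highest in liver 1, at 17.1 and 12.7 FPKM, as were 2 of the 77 ribosomal protein genes, Mrpl38 and Mrps30. Tufm, the elongation factor that brings aminoacyl-tRNA, was at -0.57 in the direct comparison (authors' deposited table, adjusted p = 0.000943).

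Of 12 proteases and import factors, 1 was called higher and 4 lower in the knockout against the reference, none in the Cpt2 group (2 higher at an unadjusted p of at most 0.05 in the authors' deposited table), and 1 higher and 6 lower in the direct comparison. The protease subunits Clpx and Lonp1 were at -1.22 and -0.83, Afg3l2, which cuts Mrpl32 to its mature form, at -0.61, and the import receptor Tomm20 at 0.76 (authors' deposited table, adjusted p = 2.27e-06, 2.39e-05, 0.00453 and 0.000384). Mrpl32 itself was not called, at -0.16 in the Cpt2 group and 0.29 in the direct comparison in the authors' deposited tables (adjusted p = 0.640 and 0.337).

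Of 14 genes of mitochondrial transcription and DNA replication, none was called in the first comparison (2 were lower and 0 higher at an unadjusted p of at most 0.05 in the authors' deposited table), 1 was higher in the Cpt2 group, and 1 was higher and 1 lower in the direct comparison. Top1mt, the mitochondrial topoisomerase, was at 0.58 in the Cpt2 group and -0.75 between the groups (authors' deposited tables, adjusted p = 0.00282 and 9.38e-05), and Polg2, the accessory subunit of the DNA polymerase, at 0.56 between the groups (authors' deposited table, adjusted p = 0.0113). Of 9 regulators, 2 were called lower in the knockout, 1 higher in the Cpt2 group and 3 lower in the direct comparison. The coactivator Ppargc1a was at -1.23 and Gabpa, the DNA-binding subunit of GABP, at -0.48 in the knockout against the reference (authors' deposited table, adjusted p = 0.00264 and 0.0400). Ppargc1a was at 2.48, 2.84, 1.81 and 3.08 FPKM and Gabpa at 10.1, 8.41, 8.99 and 8.47. The direct comparison had Nrf1 at -0.61, Pprc1 at -0.95 and Myc at -1.30 (authors' deposited table, adjusted p = 0.00259, 0.00130 and 9.50e-05). Myc was at 1.22 in the Cpt2 group (authors' deposited table, adjusted p = 0.00860).

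Of the 2 rRNAs, mt-Rnr2 was called in opposite directions against the reference and mt-Rnr1 was not called there. Mt-Rnr2 was at 0.93 in the knockout and -1.07 in the Cpt2 group against the reference (authors' deposited tables, adjusted p = 0.0128 and 0.000547), and at 1.99 between them (adjusted p = 2.48e-12). Mt-Rnr1 was at 0.61 in the knockout (adjusted p = 0.0718), -0.49 in the Cpt2 group (adjusted p = 0.145) and 1.09 between the groups (adjusted p = 1.06e-07) in the authors' deposited tables. The capture of these RNAs depends on library preparation, and its part in these differences was not tested.

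**Figure D4:**
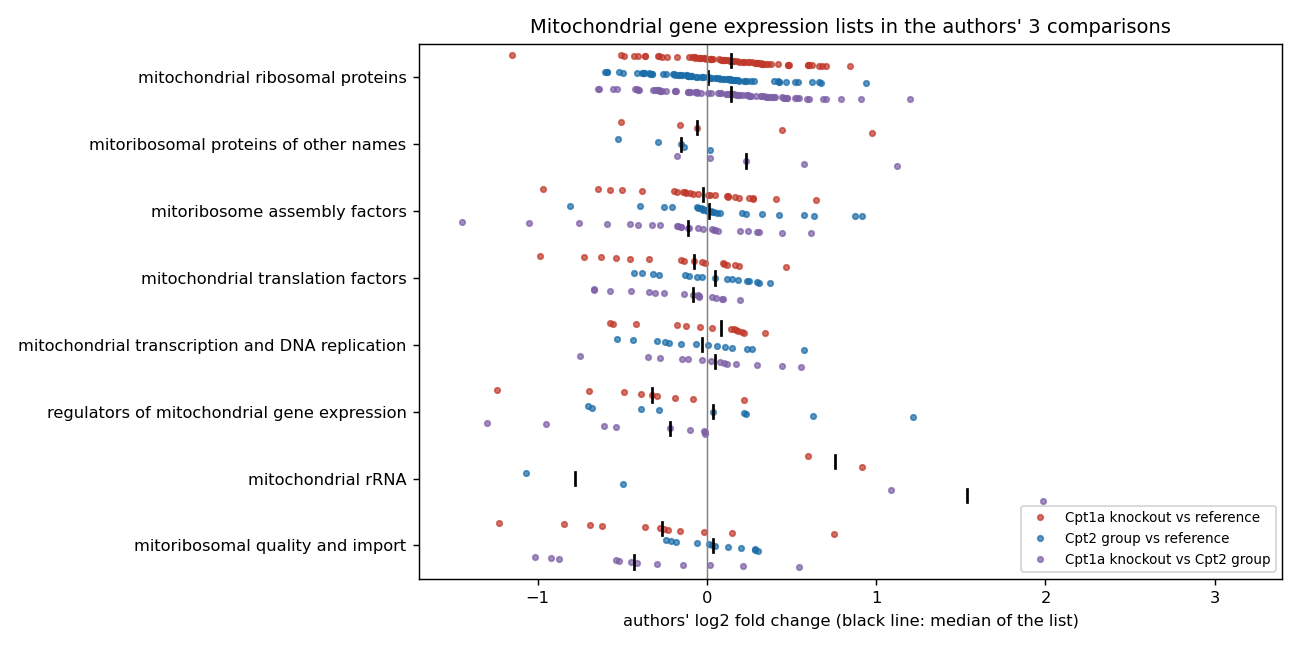
Log2 fold change (x axis) of each of 77 mitochondrial ribosomal genes and the genes of 7 further lists (y axis), in the authors' 3 comparisons shown by colour, the first with summed values, with a black line at the median of each list. Mitochondrial rRNAs have 2 points and medians of 0.76, -0.78 and 1.54, and translation factors have medians of -0.077, 0.046 and -0.083.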

How the data were processed

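Raw read counts per gene were deposited by the authors, with gene model lengths, coordinates and biotypes per the file headers. A companion table by the authors holds FPKM. The submitters' processing notes name HISAT2 and the build GRCm38 (mm10). For the counter, annotation release, use of strand and the test behind the comparisons, the sources used here give nothing. Per the file headers, 3 tables by the authors hold log2 fold changes with raw and adjusted p-values. One of these stops at an unadjusted p of 0.05 and holds 4461 genes, and values for its other genes were added up from the remaining tables (median difference 0.012). Calls use an adjusted p below 0.05. A further 8 per-sample columns of the count table match no sample and were not used.

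Counts were scaled with TMM in edgeR 4.0.16 (R 4.3.3), with DESeq2 1.42.0 size factors as an alternative, and given as log2(CPM + 1). Spread is the SD over 4 livers. Libraries held 13138884 to 14116441 counts, and a count of 0 allows up to 3. Other steps used Python 3.11.15, pandas 2.3.3 and numpy 2.4.6. The spread was tested on simulated data with scaling by library sum, and the TMM scaling was not. Principal transcripts are from GENCODE M21 and promoters from RefSeq.

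Members and lists were chosen with earlier results of these data known. Named genes are those called in any comparison (up to 8 per direction), the 5 highest and 5 lowest levels, the 5 largest spreads, the Mrps18 paralogs, Mrps36, Mrpl12, called genes of the lists (up to 4 per comparison), and Cpt1a and Cpt2 as a check of labels. Names beyond this rule were chosen after their values were seen.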

Additional observations from a re-analysis of the deposited data

Results flagged for a closer look

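Mrpl18 was at 29.9 FPKM in liver 1 while the other livers held 38.0 to 39.5, and Mrpl19 was at 1.45 FPKM in liver 2 while the others held 1.91 to 1.99, so in each gene 1 liver lay far from a tight group of 3. Chance flags about 1 in 20 groups of this size, and this held for 2 of 77 genes.

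Mrps24 was called in opposite directions against the reference in the 2 groups, at 0.72 in the knockout and -0.50 in the Cpt2 group, and the direct comparison in the authors' deposited table put them 1.20 apart on the log2 scale (adjusted p = 9.35e-08).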

How the results depend on the processing

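Of 55 alternative values over 12 results, 48 stayed within the tolerance, 7 moved past it and none reversed. The tolerance was 1.5-fold for counts of genes and for spread, 0.1 for median log2 fold changes, and 1 SD over livers for levels and shares. Within it, the median log2 fold change between the knockout and the Cpt2 group went from 0.14 to 0.085 relative to protein-coding genes of the same length class. At an adjusted p below 0.01, the count of genes called higher in the knockout against the reference was 1 (main value 5; all genes 6.81% to 3.70%), the count called lower in the Cpt2 group was 1 (main value 3; all genes 10.7% to 7.61%), and the count called higher in the knockout against the Cpt2 group was 7 (main value 11; all genes 14.2% to 9.20%). At an adjusted p below 0.05 with a change of at least 1.5-fold, the counts in the knockout against the Cpt2 group were 7 higher and 2 lower (main values 11 and 4), and over all genes 11.7% and 10.3%. The median spread between livers was 0.183 without liver 1 and at most 0.341 without another liver, against 0.285. The median FPKM of 10.3 became 17.6 when rescaled to the principal transcript length, a choice made after seeing the data; it ranged from 9.40 to 10.8 when 1 liver was left out, and the share of counts, 0.247% on average (SD 0.0516, n = 4), from 0.229% to 0.269%. Leaving out a library was not possible for the authors' comparisons, whose test was not rerun here. No paired analysis was possible because the series holds 1 group.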
